A study of Mus musculus with 4 samples.

Results

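The sarcomeric myosins of the heart were followed through 4 RNA-seq libraries of mouse hearts. The gene set was named by symbol and held 7 genes, namely the heavy chains Myh6, Myh7 and Myh7b and the light chains Myl2, Myl3, Myl4 and Myl7. Of these, 6 were among the 12408 genes listed in every library, and Myl7, the atrial regulatory light chain, is not among the listed genes and was not analysed here. The number of Myh7 reads per Myh6 read was computed in each library as well.

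The hearts came from C57BL/6 mice aged 3 months. Hearts labelled WW45cKO carried both floxed WW45 alleles together with a Cre transgene driven by the alpha-MHC promoter (cKO below), and control hearts labelled CT carried the floxed alleles without Cre. WW45 is the gene Sav1, a scaffold protein of the Hippo pathway that restrains the coactivator YAP. Each genotype was sampled after 4 weeks of transverse aortic constriction (TAC), a ligature on the aorta that raises the pressure load on the left ventricle, and at baseline without it. This gave 1 library in each of the groups cKO TAC, cKO baseline, CT TAC and CT baseline. Whether a library came from 1 heart or from a pool is not given in the sources used here. No sham-operated library and no library with Cre alone was analysed here, so the effects of Cre and of the deletion cannot be told apart, nor can those of the operation and of the load. The alpha-MHC promoter that drives Cre is the promoter of Myh6.

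Sarcomeric myosin is built from a pair of heavy chains, which carry the motor and the rod, each with an essential and a regulatory light chain wrapped around the neck of the motor. The adult mouse ventricle uses mostly the fast alpha heavy chain (Myh6), whereas the slower beta heavy chain (Myh7) predominates before birth and returns under pressure overload, a classic sign of hypertrophic growth in rodents. Myl3 and Myl2 are the essential and regulatory light chains of the ventricle. Myl4 and Myl7 are their counterparts in the atrium and the embryonic heart, and Myh7b is a distant relative of the cardiac heavy chains that lies apart from them in the genome.

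The 3 heavy chain genes each hold a microRNA in an intron. Their mature sequences are shown because this family takes part in the switch between the heavy chains, as studied in mice, and because its members are made from the introns of the very transcripts measured here. The sequences are from RefSeq (GRCm38.p6), written 5′ to 3′, and the capitals mark the seed, bases 2 to 8.
mmu-miR-208a-3p (Myh6, intron 29): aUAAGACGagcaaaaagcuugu
mmu-miR-208b-3p (Myh7, intron 31): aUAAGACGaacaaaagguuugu
mmu-miR-499-5p (Myh7b, intron 19): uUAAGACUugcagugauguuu
The miR-208a and miR-208b sequences lie on the minus strand at chr14:54949072-54949093 and chr14:54975710-54975731, and miR-499-5p on the plus strand at chr2:155622893-155622913. Both miR-208 sequences share the seed UAAGACG and are identical at 19 of 22 bases. They differ by G10A, A16G and C18U, counted from 1 at the 5′ end with the miR-208a base first. The seed of miR-499-5p is UAAGACU. None of these microRNAs is among the listed genes, so only their host genes have values.

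Myh6 and Myh7 lie in tandem on the minus strand of chromosome 14. Their RefSeq promoter windows, 250 bases before to 50 bases after an annotated start, are shown because both hold the letters CATTCC, the MCAT motif bound by the TEAD factors through which YAP acts. Capitals mark that motif, here on the opposite strand as GGAATG, and TATAAA.
Myh6, chr14:54966558-54966857, minus strand: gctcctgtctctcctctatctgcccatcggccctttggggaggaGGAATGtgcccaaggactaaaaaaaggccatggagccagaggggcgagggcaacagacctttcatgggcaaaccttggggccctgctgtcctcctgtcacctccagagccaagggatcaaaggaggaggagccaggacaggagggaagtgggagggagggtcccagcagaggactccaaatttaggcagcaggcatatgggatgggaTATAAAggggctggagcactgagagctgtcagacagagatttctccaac
Myh7, chr14:54994577-54994876, minus strand: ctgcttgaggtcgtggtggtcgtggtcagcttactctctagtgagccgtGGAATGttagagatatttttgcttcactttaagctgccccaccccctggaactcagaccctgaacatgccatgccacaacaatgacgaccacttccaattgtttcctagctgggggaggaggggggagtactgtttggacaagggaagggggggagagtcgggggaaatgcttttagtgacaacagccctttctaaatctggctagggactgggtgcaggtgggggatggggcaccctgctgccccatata
A second RefSeq window of Myh7, from a start further downstream, does not hold CATTCC. The motif, searched on both strands, starts at base 45 of the Myh6 window and at base 50 of the Myh7 window. It was held by 4751 of 32544 promoter windows of this length (14.6%). The Myl3 window holds it at bases 74 and 102, the Myl7 window at base 181, and the windows of Myh7b, Myl2 and Myl4 do not hold these letters. TATAAA starts at base 252 of the Myh6 window, just past the annotated start and not before it. It occurred in 13.6% of all windows. A match of letters is a description of the window and not a binding site.

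The libraries held 1772153 reads (cKO TAC), 1587840 reads (cKO baseline), 2064655 reads (CT TAC) and 2796547 reads (CT baseline), as recovered from the deposited log2 CPM, where CPM is a gene's reads scaled to the size of its library. Sav1 itself does not follow its genotype label: it had 46.2 CPM (85 reads) in the library labelled cKO TAC and 35.4 CPM (71 reads) in CT TAC, and 39.8 CPM (65 reads) in cKO baseline against 49.3 CPM (133 reads) in CT baseline. The counting interval of the ratio held 1 in both pairs, and a count over the whole gene cannot show the loss of a floxed exon. The names cKO and CT are therefore used below as the labels give them, and each genotype direction rests on a label that Sav1 does not bear out. All 9 cardiomyocyte markers were present, summing to 61716 CPM in cKO TAC, 62097 CPM in cKO baseline, 79220 CPM in CT TAC and 63400 CPM in CT baseline. Fibroblast markers (7 of 7 listed) summed to 5528, 2491, 5079 and 1484 CPM in the same order, and macrophage markers (6 of 6) to 714, 831, 519 and 338 CPM. Hemoglobin and Alas2 (3 of 5 erythroid markers) summed to 2240, 1565, 737 and 1092 CPM. The higher cardiomyocyte sum in CT TAC was not shared by all 9 markers, as 5 were above CT baseline and 4 below. Actc1 (37745 CPM in CT TAC, 25701 CPM in CT baseline) and Tnnc1 (9372 and 3701 CPM) were higher. Tnnt2 (3780 and 4578 CPM) and Ryr2 (1598 and 2787 CPM) were lower. The part of these marker shifts in the myosin values was not tested, and in heart tissue fewer cardiomyocytes and less myosin RNA per cardiomyocyte cannot be told apart.

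Myh6 (chr14:54941921-54966927, 39 exons) took the most reads of all 12408 genes in every library. Its level was 33239 CPM in cKO TAC, 41570 CPM in cKO baseline, 51827 CPM in CT TAC and 57903 CPM in CT baseline. Both libraries labelled cKO lay below both CT libraries, and within each genotype the TAC library was the lower one. Such an order of 2 libraries against 2, here and below, only describes these libraries. The smallest p that an exact two-sided permutation test of 2 against 2 allows is 0.333. The share of all genes ordered this way was not counted. Against CT, the cKO libraries had a log2 ratio of -0.64 under TAC and -0.48 at baseline, or 18588 CPM and 16333 CPM less. Set against baseline, TAC had a log2 ratio of -0.32 in cKO and -0.16 in CT. All 4 ratios had 95% counting intervals that left out 1, of which the fold of cKO over CT under TAC (0.635 to 0.648) lay farthest from it. With 1 library a group these intervals cover counting error only, reads copied by PCR are not independent molecules, and the spread between mice was not measured.

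Myh7 (chr14:54970684-54994626, 41 exons) ran the other way. It had 8004 CPM in cKO TAC, 5194 CPM in cKO baseline, 6611 CPM in CT TAC and 4459 CPM in CT baseline, and ranked between 9th and 20th among all genes by CPM. The TAC libraries lay above the baseline libraries without overlap, and within each condition the library labelled cKO was above CT. The log2 ratio of TAC to baseline was 0.62 in cKO (fold interval 1.5004 to 1.58) and 0.57 in CT (1.45 to 1.52). Between the genotypes it was smaller, with cKO over CT at 0.28 under TAC (1.18 to 1.24) and 0.22 at baseline (1.13 to 1.198). In CPM, TAC libraries held 2810 CPM more Myh7 than baseline in cKO and 2152 CPM more in CT, while Myh6 was 8331 CPM and 6076 CPM lower.

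**Figure D1:**
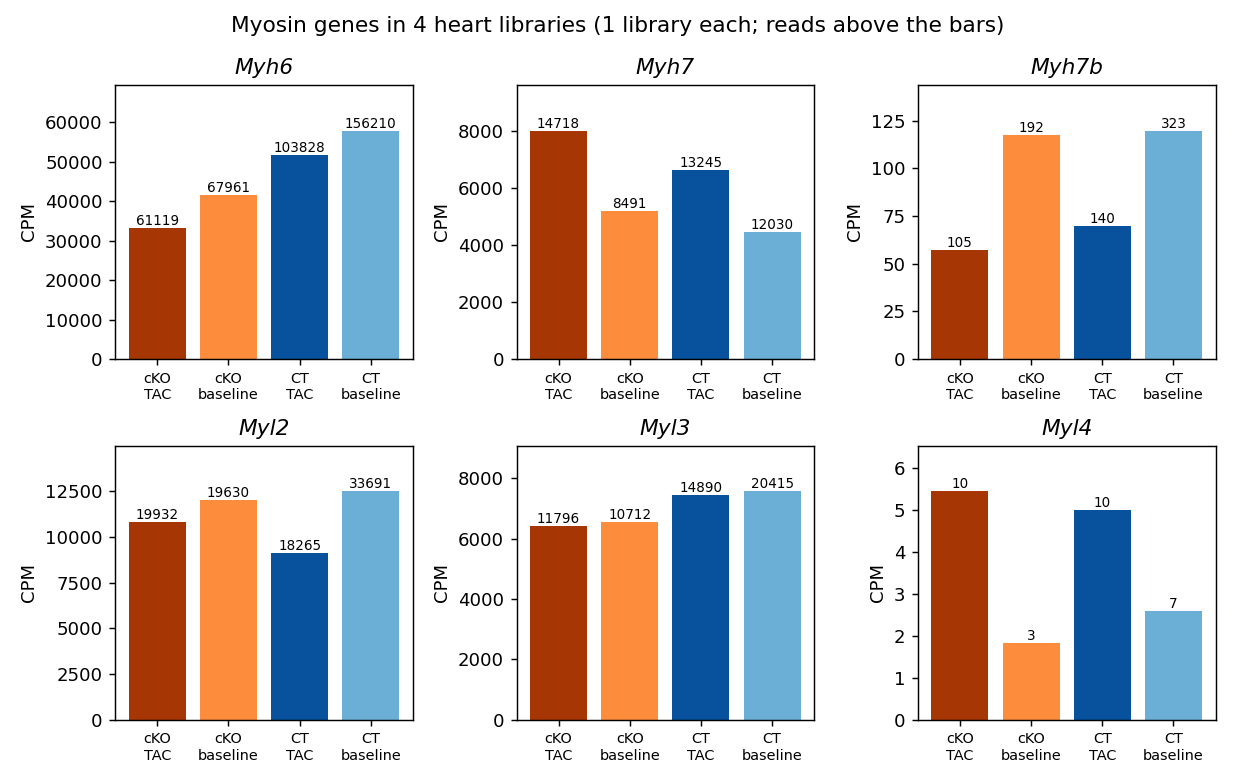
Level of each listed myosin gene in CPM (vertical axis, linear and from 0, scaled separately for each gene) in the 4 libraries, with the recovered reads printed above each bar. Myh6 is lowest in cKO TAC (33239 CPM) and highest in CT baseline (57903 CPM), Myh7 is highest in cKO TAC (8004 CPM) and lowest in CT baseline (4459 CPM), and Myl4 rests on 3 to 10 reads.

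The Myh7 to Myh6 ratio joins both shifts in 1 number in which the scaling of the libraries cancels. It was 0.241 in cKO TAC (95% counting interval 0.236 to 0.245), 0.125 in cKO baseline (0.122 to 0.128), 0.128 in CT TAC (0.125 to 0.130) and 0.0770 in CT baseline (0.0756 to 0.0785). Per length of transcript the ratios were 0.236, 0.123, 0.125 and 0.0756 in the same order. There were thus 4.15 Myh6 reads for each Myh7 read in cKO TAC, 8.004 in cKO baseline, 7.84 in CT TAC and 12.985 in CT baseline. The library labelled cKO TAC stood above the other three, CT baseline stood below them, and cKO baseline and CT TAC lay close together: CT TAC over cKO baseline was 1.02, with an interval that held 1 (0.992 to 1.05).

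The ratio was 1.89-fold higher in cKO than in CT under TAC (interval 1.84 to 1.94) and 1.62-fold higher at baseline (1.58 to 1.67). It was 1.93-fold higher under TAC than at baseline in cKO (1.87 to 1.98) and 1.66-fold higher in CT (1.61 to 1.70). The genes contributed unequally to these differences. Between cKO and CT, the log2 difference of the ratio was 0.92 under TAC and 0.70 at baseline, of which Myh6 (-0.64 and -0.48) made up more than Myh7 (0.28 and 0.22). Unlike the ratio, this split depends on the scaling of the libraries. Scaled to total reads, Myh6 and Myh7 had -0.54 and 0.37 under TAC, and -0.38 and 0.31 at baseline. Between TAC and baseline it was 0.95 in cKO and 0.73 in CT, of which Myh7 (0.62 and 0.57) made up more than Myh6 (-0.32 and -0.16). The log2 difference between TAC and baseline was 0.22 larger in cKO than in CT, and that difference was not tested because each cell of the design is 1 library. Over both genotypes, the TAC libraries had the higher ratio by 0.84 on the log2 scale with no overlap (lowest TAC 0.128, highest baseline 0.125), and the libraries labelled cKO the higher ratio than CT by 0.81 with overlap. An exact two-sided permutation test of 2 against 2 libraries gave p = 0.333 for TAC, the smallest p it allows, and p = 0.667 for genotype (both 0.667 after Benjamini-Hochberg adjustment over the 2 tests).

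The sum of Myh6 and Myh7 was 41243 CPM in cKO TAC, 46764 CPM in cKO baseline, 58439 CPM in CT TAC and 62362 CPM in CT baseline. In every pair the excess of Myh7 in CPM was smaller than the deficit of Myh6, and the sum in cKO was 0.706 of that in CT under TAC and 0.750 of it at baseline. These folds also depend on the scaling. As a share of total reads the sum was 4.28% in cKO TAC, 4.81% in cKO baseline, 5.67% in CT TAC and 6.02% in CT baseline. Myh7 made up 19.4% of the sum in cKO TAC, 11.1% in cKO baseline, 11.3% in CT TAC and 7.15% in CT baseline.

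**Figure D2:**
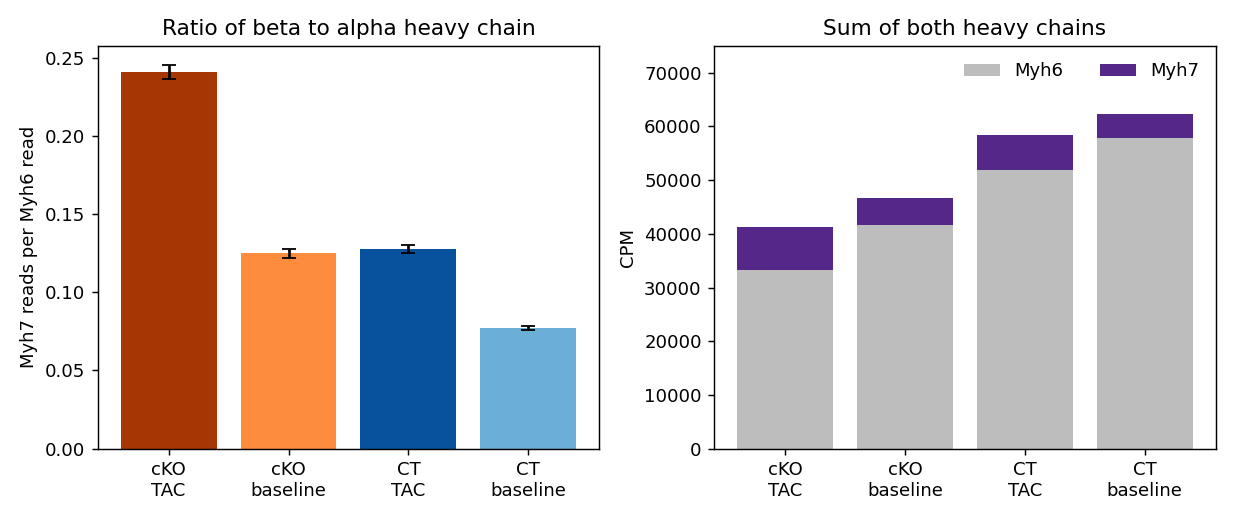
Left, Myh7 reads per Myh6 read in each library, with 95% counting intervals as error bars, which stands at 0.241 in cKO TAC, at 0.125 in cKO baseline and 0.128 in CT TAC, and at 0.0770 in CT baseline. Right, the level of both heavy chains in CPM stacked, Myh6 in grey and Myh7 in purple, which sums to 41243 CPM in cKO TAC and 62362 CPM in CT baseline.

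The 2 heavy chains are close relatives in sequence, which bears on how reads could be assigned to them. Of the 6181 stretches of 50 bases in the Myh7 transcript, 1373 (22.2%) occur letter for letter in Myh6, and 687 of the 6131 stretches of 100 bases (11.2%) do. No other pair of the 7 genes shares a stretch of 50 bases. The sources used here give neither the read length nor the treatment of reads that match both, and all 6 listed myosins had whole reads in every library, against 2449 genes with parts of reads in some library. On the opposite strand, exons of Mhrt, a noncoding RNA of the heart, overlap 484 of 8616 exon bases of Myh7 (5.62%), and those of Gm31251 and Gm29015 overlap 6.07% and 1.65%. Whether strand was used in counting is not given, so within these overlaps reads of Myh7 and of the antisense genes cannot be told apart.

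Myh7b (chr2:155611212-155634307, plus strand) had few reads beside the other cardiac heavy chains. Its level was 57.1 CPM in cKO TAC (105 reads), 117 CPM in cKO baseline (192 reads), 69.9 CPM in CT TAC (140 reads) and 119.7 CPM in CT baseline (323 reads). Both TAC libraries lay below both baseline libraries, with a log2 ratio of TAC to baseline of -1.03 in cKO (fold interval 0.380 to 0.620) and -0.77 in CT (0.475 to 0.714). Between the genotypes the intervals held 1, at a log2 ratio of -0.29 under TAC (0.628 to 1.06) and -0.028 at baseline (0.816 to 1.18), the baseline value turning to 0.066 with libraries scaled to total reads. Myh7b, the host of miR-499, was thus lower under TAC while Myh7, the host of miR-208b, was higher.

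The ventricular regulatory light chain Myl2 (chr5:122100951-122113472) had 10839.7 CPM in cKO TAC, 12007 CPM in cKO baseline, 9117 CPM in CT TAC and 12488 CPM in CT baseline. CT TAC was the lowest library, and both TAC libraries lay below both baseline libraries. The log2 ratio of TAC to baseline was -0.15 in cKO (fold interval 0.885 to 0.921) and -0.45 in CT (0.717 to 0.743). Between cKO and CT it was 0.25 under TAC (1.17 to 1.21) and -0.057 at baseline (0.945 to 0.979). The baseline value turned to 0.037 when libraries were scaled to their total reads, so it has no settled direction.

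The ventricular essential light chain Myl3 (chr9:110741861-110769798) was the steadiest of the listed myosins, with its highest level 1.18 times its lowest. It had 6415 CPM in cKO TAC, 6552 CPM in cKO baseline, 7433 CPM in CT TAC and 7567 CPM in CT baseline. TAC and baseline lay within counting error of each other in both genotypes, at a log2 ratio of -0.031 in cKO and -0.026 in CT. In cKO it was lower than in CT, with a log2 ratio of -0.21 both under TAC (fold interval 0.842 to 0.884) and at baseline (0.846 to 0.886). Scaled to total reads, these values came nearer to 0, at -0.12 under TAC and -0.11 at baseline. There were 1.69 Myl2 reads per Myl3 read in cKO TAC, 1.83 in cKO baseline, 1.23 in CT TAC and 1.65 in CT baseline.

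Per kilobase of transcript, Myl2 had the highest mean level over the 4 libraries (12501 CPM per kb), followed by Myh6 (7547) and Myl3 (7462). Myh7 (974), Myh7b (14.8) and Myl4 (3.94) followed. On the same scale the summed Myl2 and Myl3 level was 2.83 times the summed Myh6 and Myh7 level in cKO TAC, 2.69 times in cKO baseline, 1.91 times in CT TAC and 2.17 times in CT baseline. Both libraries labelled cKO therefore had more ventricular light chain message per heavy chain message than both CT libraries.

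Myl4 (chr11:104550663-104595753), the atrial essential light chain, was near the limit of detection. It had 5.44 CPM in cKO TAC (10 reads), 1.84 CPM in cKO baseline (3 reads), 4.99 CPM in CT TAC (10 reads) and 2.59 CPM in CT baseline (7 reads). The TAC libraries held more reads, but every interval held 1, the log2 ratio of TAC to baseline being 1.35 in cKO (fold interval 0.763 to 16.8) and 0.83 in CT (0.661 to 5.95). The ratio of cKO to CT could not be set apart from 1 either, at a log2 ratio of 0.11 under TAC (0.407 to 2.92) and -0.41 at baseline (0.118 to 3.10). These values also move with the reads added before the logarithm, and with 5 reads added the log2 ratio of TAC to baseline was 0.88 in cKO. Beside this, the 8 listed of 12 atrial markers summed to 67.7 CPM in cKO TAC, 102 CPM in cKO baseline, 88.4 CPM in CT TAC and 144 CPM in CT baseline, and none of the 8 was at 0. The 8 did not move as 1 set. Under TAC 6 were below baseline and 2 above in each genotype. In each genotype 2 were called lower (2.83% of all genes in cKO, 4.69% in CT) and 1, Dkk3, higher (3.7% and 6.05%). Dkk3 had 18 reads in cKO TAC and 1 in cKO baseline, and 12 in CT TAC and 3 in CT baseline. The atrial genes Sln, Bmp10 and Mybphl are not among the listed genes. How much atrial tissue each library held was not tested.

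**Figure D3:**
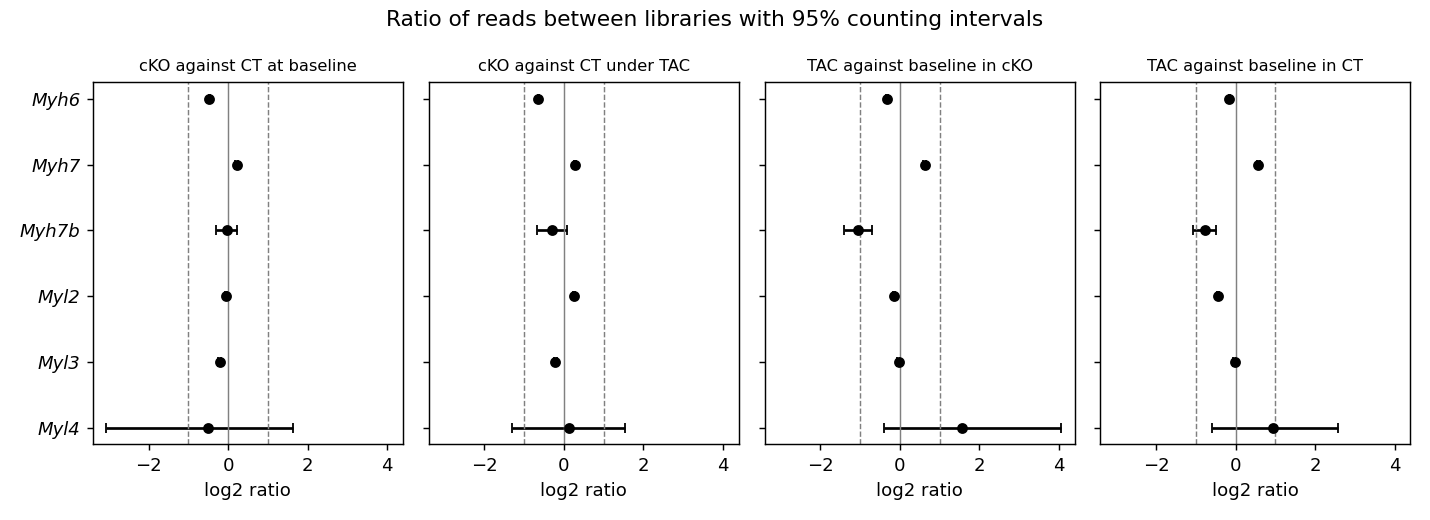
Log2 ratio of reads between libraries (horizontal axis) for each listed myosin, with 95% counting intervals as bars, in the pairs cKO against CT at baseline and under TAC and TAC against baseline in cKO and in CT. Dashed lines mark 2-fold; only Myh7b under TAC in cKO passes one with an interval that leaves out 1. The points of Myl4 are plain ratios of reads, without the read added in the deposited values, so they lie slightly farther from 0 than the log2 ratios in the text.

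A gene was called in a pair when its libraries were at least 2-fold apart and the counting interval left out 1. Of the 6 listed myosins, 0 were called between cKO and CT under TAC, where 5.02% of all genes were called, and 0 at baseline, where 5.05% were. Between TAC and baseline 1 was called in cKO, Myh7b as lower (6.53% of all genes, 2.83% in that direction), and 0 in CT (10.7%). By direction, 3.7% of all genes were called higher under TAC in cKO, 6.05% higher and 4.69% lower under TAC in CT, and 1.79% lower in cKO than in CT at baseline. The median log2 ratio of the 6 was -0.050 between cKO and CT under TAC and -0.13 at baseline, and -0.089 between TAC and baseline in cKO and -0.093 in CT, against 0.0074, 0.0043, -0.0042 (cKO) and 0.011 (CT) over all genes. Myh6, Myh7, Myl2 and Myl3 were thus under 2-fold apart in every pair, while Myl4 passed 2-fold under TAC in cKO with an interval that held 1.

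Fitted over all 4 libraries with limma, 0 of the 6 listed myosins passed an adjusted p of 0.05 for TAC (1.82% of all genes passed) and 0 for genotype (0.0242%). At an unadjusted p under 0.05 there were 2 for TAC, Myh7 and Myh7b, among 16.2% of all genes, and 1 for genotype, Myh6, among 7.77%. The TAC term of Myh7b was a log2 change of -0.90 (SE 0.20, limma adjusted p = 0.0525), and it was lower in 2 of 2 pairs. Its adjusted p ran from 0.0346 to 0.376 over the alternative settings that kept all 4 libraries. It was lowest when genes under a mean of 5 CPM were left out, so the call depends on that filter. The TAC term of Myh7 was 0.60 (SE 0.18, limma adjusted p = 0.143), higher in 2 of 2 pairs, and that of Myl4 was 1.09 (SE 0.52, limma adjusted p = 0.333). The genotype term of Myh6 was -0.56 (SE 0.23, limma adjusted p = 0.609), lower in 2 of 2 pairs. With 1 residual degree of freedom, the fit takes its error from the difference between the pairs of libraries and from all other genes, not from repeated hearts.

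Of 12 other heavy chains, 11 were listed. The limma fit called 0 of the 11 for TAC (1.82% of all genes) and 0 for genotype (0.0242%). At an unadjusted p under 0.05 there were 3 for TAC (16.2% of all genes) and 0 for genotype (7.77%). Myh8, the perinatal heavy chain of skeletal muscle, had 23.4 CPM in cKO TAC (43 reads), 4.89 CPM in cKO baseline (8 reads), 10.98 CPM in CT TAC (22 reads) and 7.78 CPM in CT baseline (21 reads). It was called higher under TAC in cKO (log2 ratio 2.15, fold interval 2.22 to 11.8), as 3.7% of all genes were. It was also called higher in cKO against CT under TAC (1.06, 1.25 to 3.74), where 5.02% were called in either direction. Myh4, a fast skeletal heavy chain, was called higher under TAC in CT (log2 ratio 1.46), as 6.05% of all genes were. It had 14 reads in CT TAC and 6 in CT baseline. Of the 3 with an unadjusted p under 0.05 for TAC, Myh8 and Myh4 were higher and Myh11 was lower. Myh11, recovered in parts of reads, had a log2 ratio of TAC to baseline of -0.70 in cKO (fold interval 0.399 to 0.933) and -0.99 in CT (0.343 to 0.694). The 8 listed of 11 skeletal muscle markers, Myh4 among them, summed to 28.6 CPM in cKO TAC, 27.2 in cKO baseline, 28.2 in CT TAC and 17.2 in CT baseline.

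Among the other light chains, 8 of 10 were listed and Myl6 was the one called in any pair. The limma fit called 0 for TAC (1.82% of all genes) and 0 for genotype (0.0242%). At an unadjusted p under 0.05 there were 0 for TAC (16.2% of all genes) and 1 for genotype (7.77%). Myl6, the essential light chain of smooth muscle and nonmuscle myosin, had 83.4 CPM in cKO TAC, 98.0 CPM in cKO baseline, 95.4 CPM in CT TAC and 25.8 CPM in CT baseline. CT baseline stood apart below the other libraries, giving a log2 ratio of 1.91 for cKO against CT at baseline and 1.87 for TAC against baseline in CT. Over all genes, 5.05% were called in either direction in the first pair and 6.05% higher in the second. The reads of Myl6 were recovered in parts in some library, as happens when reads are shared between genes or positions, and so were those of Mylk3, Obsl1, Thra, Thrb, Tead1 and Hdac9 below. Of the genes that phosphorylate or dephosphorylate the regulatory light chain, 10 of 11 were listed, and 3 were called lower under TAC in CT (4.69% of all genes were), among them Mylk, the smooth muscle light chain kinase (log2 ratio -1.08), and Ppp1r12b, a targeting subunit of the phosphatase in muscle (-1.02). In cKO, Ppp1r12b had a log2 ratio of TAC to baseline of -0.91 (fold interval 0.390 to 0.714), short of 2-fold. There 0 of the 10 were called, against 6.53% of all genes in either direction. The limma fit called 0 of the 10 for TAC (1.82% of all genes) and 0 for genotype (0.0242%). At an unadjusted p under 0.05 there were 3 for TAC (16.2% of all genes) and 0 for genotype (7.77%). The remaining gene called lower under TAC in CT was Ppp1r12c, a relative of Ppp1r12b. It had 75.0 CPM in cKO TAC, 75.2 CPM in cKO baseline, 36.9 CPM in CT TAC and 77.1 CPM in CT baseline. CT TAC was thus the lowest library, and cKO against CT under TAC was also called (log2 ratio 1.01, 5.02% of all genes in either direction). Mylk3, the cardiac kinase of Myl2, had 553 CPM in cKO TAC, 729 CPM in cKO baseline, 596 CPM in CT TAC and 608 CPM in CT baseline, and was not called.

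Of 16 partners of the thick filament, 13 were listed. Mybpc3, the cardiac myosin-binding protein C that tunes cross-bridge cycling, had 3825 CPM in cKO TAC, 3907 CPM in cKO baseline, 3616 CPM in CT TAC and 3275 CPM in CT baseline, and was not called in any pair. Mybpc2, the fast skeletal form, was called higher in cKO than in CT at baseline (log2 ratio 1.84) and under TAC in CT (1.34). Over all genes, 5.05% were called in either direction in the first pair and 6.05% higher in the second. In Mybpc2, CT baseline, at 17.4 CPM, lay below the 60.9, 63.6 and 44.9 CPM of cKO TAC, cKO baseline and CT TAC. Obsl1, a cytoskeletal linker related to obscurin, fell under TAC in the limma fit (log2 change -0.97, SE 0.20, limma adjusted p = 0.0417), with 57.9 CPM in cKO TAC, 113 CPM in cKO baseline, 54.9 CPM in CT TAC and 108 CPM in CT baseline. It was the only one of the 13 that the limma fit called for TAC (1.82% of all genes), and 0 were called for genotype (0.0242%). At an unadjusted p under 0.05 there were 3 for TAC (16.2% of all genes) and 1 for genotype (7.77%). The call of Obsl1 held under 1 of 9 alternative settings, with a limma adjusted p of 0.0283 to 0.393.

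Among 31 genes that control the choice between the heavy chains or the thyroid hormone signal upstream of it, 29 were listed. In the pairs, 1 was called higher and 1 lower under TAC in cKO (3.7% and 2.83% of all genes), and 1 higher and 5 lower under TAC in CT (6.05% and 4.69%). Between cKO and CT, 0 were called under TAC (5.02% of all genes in either direction) and 1 lower at baseline (1.79%). The limma fit called 1 for TAC (1.82% of all genes) and 0 for genotype (0.0242%). At an unadjusted p under 0.05 there were 4 of the 29 for TAC (16.2% of all genes) and 0 for genotype (7.77%). The median log2 TAC change of the 29 was -0.20, against -0.00029 for all genes. Hopx, a homeodomain protein that represses genes of the serum response factor, fell under TAC (log2 change -1.10, SE 0.23, limma adjusted p = 0.0390), with 51.1 CPM in cKO TAC, 91.8 CPM in cKO baseline, 35.4 CPM in CT TAC and 92.3 CPM in CT baseline. Its call held under 1 of 9 alternative settings, with an adjusted p of 0.0231 to 0.434. Dio2, the enzyme that makes active thyroid hormone, had 6 reads in cKO TAC and 7 in CT TAC but 0 in both baseline libraries. Dio2 was the gene called higher under TAC in both genotypes. With a floor of 3 reads in place of 0, TAC over baseline was 1.78-fold in cKO and 3.14-fold in CT. The call in cKO thus rests on the count of 0, since 1.78-fold is short of 2-fold. The counting intervals of the fold began at 1.05 in cKO and 1.94 in CT (limma adjusted p = 0.0701). Thyroid hormone raises Myh6 and lowers Myh7 in the rodent heart. Of its receptors, Thra had 69.6 CPM in cKO TAC, 80.4 CPM in cKO baseline, 99.6 CPM in CT TAC and 103 CPM in CT baseline, and the 2 libraries labelled cKO lay below both CT libraries, though it was not called.

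Thrb, the other receptor, had 2.18 CPM in cKO TAC, 4.89 CPM in cKO baseline, 5.74 CPM in CT TAC and 7.04 CPM in CT baseline, and was not called. Tead1, a TEAD factor, had 19.2 CPM in cKO TAC, 33.4 CPM in cKO baseline, 28.0 CPM in CT TAC and 33.1 CPM in CT baseline, so cKO TAC was the lowest, again without a call. Sox6, a repressor of slow muscle genes, lay between 11.4 and 17.0 CPM in all libraries. Purb, a protein that represses Myh6, was called lower under TAC in CT (log2 ratio -1.43, 6 reads in CT TAC and 24 in CT baseline) and had a log2 ratio of -0.82 in cKO without a call. Its relative Pura had 13.1 CPM in cKO TAC, 9.18 CPM in cKO baseline, 9.48 CPM in CT TAC and 17.8 CPM in CT baseline. The cardiac transcription factors Nkx2-5 (log2 ratio -1.22) and Tbx5 (-1.08) were also called lower under TAC in CT, and Tbx5 was called lower in cKO than in CT at baseline (-1.18), on a high level in CT baseline in each case. Hdac9, a deacetylase that restrains cardiac growth in mice, was called lower under TAC in cKO (log2 ratio -1.02). Dio3 and Mhrt are not among the listed genes.

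**Figure D4:**
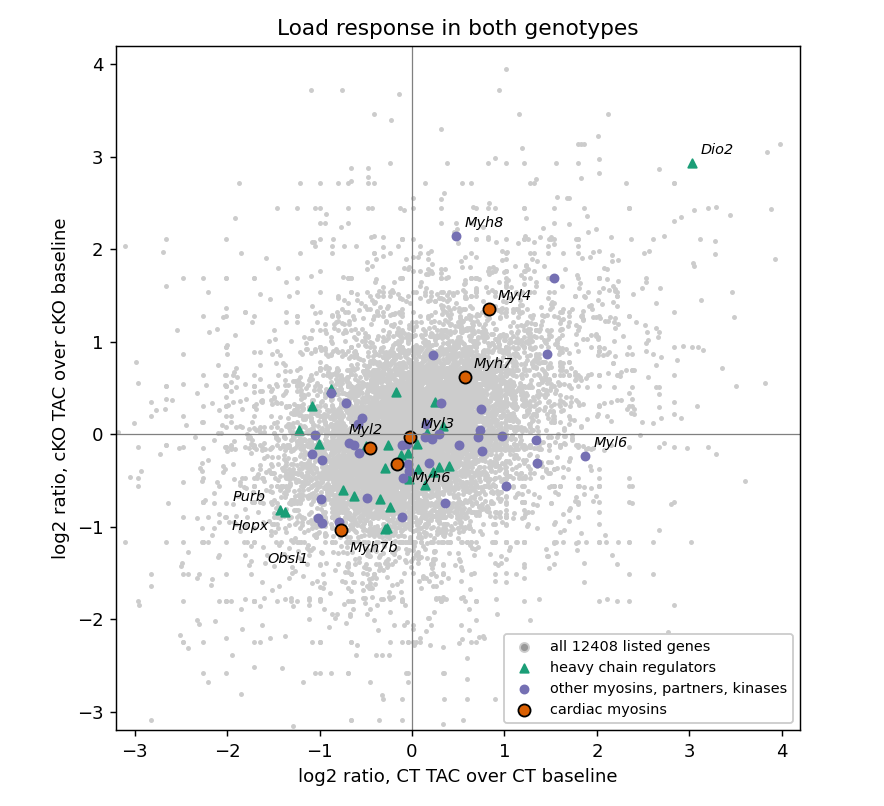
Log2 ratio of TAC to baseline in cKO (vertical axis) against the same in CT (horizontal axis) for all 12408 listed genes (grey), the heavy chain regulators (green triangles), the other myosins, partners and kinases (purple circles) and the 6 listed cardiac myosins (orange), with 35 genes beyond the axes. Myh7 lies above 0 on both axes (0.62 in cKO and 0.57 in CT), Myh7b below 0 on both (-1.03 and -0.77), and Myl3 near the origin.

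The 4 libraries do not allow a correlation of patterns, so likeness was measured as the root mean square distance between log2 values centred on their mean, over 9793 genes of at least 5 CPM on average. The 5 genes nearest to Myh7 were Ankrd27 (distance 0.00752), Ackr3 (0.0131), Rbms1 (0.0250), Cul7 (0.0258) and Ankrd49 (0.0273). Ackr3, for one, had 69.1 CPM in cKO TAC, 45.3 CPM in cKO baseline, 58.4 CPM in CT TAC and 38.5 CPM in CT baseline, the order of Myh7. That order follows from how these genes were picked, as the nearest of 9793 over 4 libraries, and shared control was not tested. Nearest to Myl2 were Tmcc2 (0.00835), Armt1 (0.00878), Ppp1cc (0.00974), Wdr20 (0.0132) and Kdm2a (0.0158). The nearest to Myl4, which rests on 3 to 10 reads, were Sybu, Sema4c, Clcn2, P3h2 and Agt, at distances of 0.0875 to 0.0936. Among the myosins the closest pair was Myl3 and Myh6 (0.208) and the farthest Myh7b and Myl4 (1.02).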

How the data were processed

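RNA from mouse hearts was extracted with a column kit and sequenced, per the labels' protocols, in 4 libraries of 1 per group. Per the submitters' processing notes, CASAVA, HISAT2 and edgeR were used with mm10 (no versions or roles), and the sources used here give neither counter nor annotation. Deposited values were log2 CPM. Reads were recovered from their grid (1 read worth 0.544 CPM in cKO TAC, 0.612 in cKO baseline, 0.499 in CT TAC and 0.371 in CT baseline); 88.6% to 89.0% of genes had whole reads within 0.01. Log2 ratios are differences of deposited values, which include an added read and understate changes of low genes.

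Pairs were called at 2-fold with a 95% Clopper-Pearson interval that left out 1. Limma (3.58.1, under R 4.3.3) was fitted with additive genotype and surgery terms and a mean-variance trend to the log2 values of all 12408 genes, at a Benjamini-Hochberg adjusted p of 0.05, because the files hold no whole counts for every gene. Both steps were tested on simulated data with counting error and, for limma, an assumed spread between libraries. These runs check the code and cannot show the spread between mice. Sequences came from RefSeq GRCm38.p6 and gene models from GENCODE on mm10. The myosins and gene lists were chosen with earlier results of these data known. All myosins were named; of each list, the called genes with the largest ratios (at most 4 per comparison) and a few regulators were named. Alternatives were scaling to total reads, other reads added, other thresholds and filters, and leaving out each library.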

Additional observations from a re-analysis of the deposited data

Results flagged for a closer look

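For 2 light chains the deposited values put the ratio of cKO to CT on opposite sides of 1 in the 2 conditions, and neither turn is established. For Myl2 the log2 ratio was 0.25 under TAC and -0.057 at baseline, and for Myl4 it was 0.11 under TAC and -0.41 at baseline. With 1 library a group, the difference between the conditions was not tested. Scaled to total reads, the Myl2 values were 0.35 under TAC and 0.037 at baseline, on the same side. Myl4 rests on 3 to 10 reads per library, and both of its counting intervals held 1.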

How the results depend on the processing

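No paired analysis was possible because the labels give no replicate numbers shared between groups, each with 1 library. At a 1.5-fold threshold, 1502 genes were called between cKO and CT under TAC and 1338 at baseline, and 1742 between TAC and baseline in cKO and 2635 in CT, against 623, 626, 810 and 1333 at 2-fold. The myosins called were then 1 (Myh6, cKO against CT under TAC), 2 (Myh7 and Myh7b, TAC in cKO) and 1 (Myh7b, TAC in CT). Per kilobase, the Myh7 to Myh6 ratio was 0.236 in cKO TAC, 0.125 in CT TAC and 0.0756 in CT baseline. For TAC the limma fit called 226 genes, but 0 without the trend, 99 with 5 reads added, 20 without the genotype term, and with 1 library left out 59 (cKO TAC), 87 (cKO baseline), 35 (CT TAC) and 9 (CT baseline), fits that also lack the genotype term and assume that a lone library varies like the other group. For genotype it called 3 genes, 9 with genes under a mean of 5 CPM left out, 0 without the trend and 0 without the surgery term, and, with 1 library left out and the surgery term dropped as well, 0 (cKO TAC), 0 (cKO baseline), 89 (CT TAC) and 13 (CT baseline). Scaling to total reads changed the split of genes called between cKO and CT under TAC to 480 higher and 185 lower, against 365 and 258. It put the log2 ratio of cKO to CT at -0.54 (TAC) and -0.38 (baseline) for Myh6, at 0.37 and 0.31 for Myh7, at 0.35 and 0.037 for Myl2, and at -0.12 and -0.11 for Myl3, and it turned Myh7b at baseline to 0.066 and put Myl4 under TAC at 0.20. With 5 reads added, the Myl4 log2 ratio was 0.88 for TAC against baseline in cKO, and -0.24 for cKO against CT at baseline. No called value changed sign. Apart from the calls at 1.5-fold given above, 1 myosin value gained a call, the TAC term of Myh7b with genes under a mean of 5 CPM left out. Depth limits Myl4, and 1 library a group limits every comparison.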
